A study of Homo sapiens with 6 samples.

Results

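The collagen genes were followed through 3 cultures of SKNAS (SK-N-AS), an established human neuroblastoma cell line. Members were all genes whose symbol reads COL, a number, A and a number, with at least 1 probe set that carries a single gene symbol. There were 43 such genes among 19775 named on the array, and 112 such probe sets among 41091. Each gene was represented by its probe set with the highest mean over the 6 arrays. COL17A1, the remaining collagen gene of the RefSeq table's 44, was not analysed here.

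Messenger RNA was measured on Affymetrix HG-U133 Plus 2.0 arrays, 2 per culture. Monolayer cells grew attached and without pretreatment. Sphere cells grew as spheroids in medium without serum, also without pretreatment. iCSC cells were exposed as a monolayer to 2.5 uM 5AdC (a nucleoside analogue that inhibits DNA methyltransferases) for 5 days and then grew as spheroids in medium without serum. All groups are the same line, and the labels do not state whether a pair of arrays came from separately grown cultures, so a p-value speaks of array-to-array spread alone, and that spread may be technical. The study set these cultures side by side to compare their stem cell phenotype.

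Collagens are the main structural proteins of the extracellular matrix. A collagen molecule is a triple helix of 3 alpha chains, which are folded and hydroxylated in the endoplasmic reticulum, secreted, trimmed and crosslinked. Fibrillar collagens form the cable-like fibrils of connective tissue, type IV collagens form the sheet of basement membranes, and type VI collagens form beaded filaments beside cells. Tissue collagen is mostly made by mesenchymal cells, and neuroblastoma cells of a mesenchymal state are known to make more matrix than those of the sympathetic neuroblast state. Chains that belong to one molecule are encoded by separate genes, several of which lie head to head.

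Levels below are log2 GCRMA signals (a background-corrected and normalized array signal). Since probe sets differ in efficiency, a level of one gene is not set against that of another, except in summed marker signals. A gene was tested when its log2 signal was at least 5, the limit taken as background, on at least 2 of the 6 arrays. Of the 43 collagens, 20 were tested. Another 21 lay under the limit on all 6 arrays, between 1.90 and 3.51. COL21A1 reached it on 1 Monolayer array alone (5.89, against 4.26 on the other), and COL2A1, the cartilage fibril collagen, on 1 iCSC array alone (6.23, against 2.47 on the other). On all 6 arrays 10 collagens stood above the limit. Both arrays of a culture were above it for 13 collagens in Monolayer, 16 in Sphere and 15 in iCSC. Detection differed by type. All 5 beaded filament chains were tested, as were 4 of 6 basement membrane chains and 6 of 11 fibrillar chains. Of the 10 fibril-associated (FACIT) chains only 2 were tested, COL9A3 and COL16A1, and of the 3 transmembrane chains none was.

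**Figure D1:**
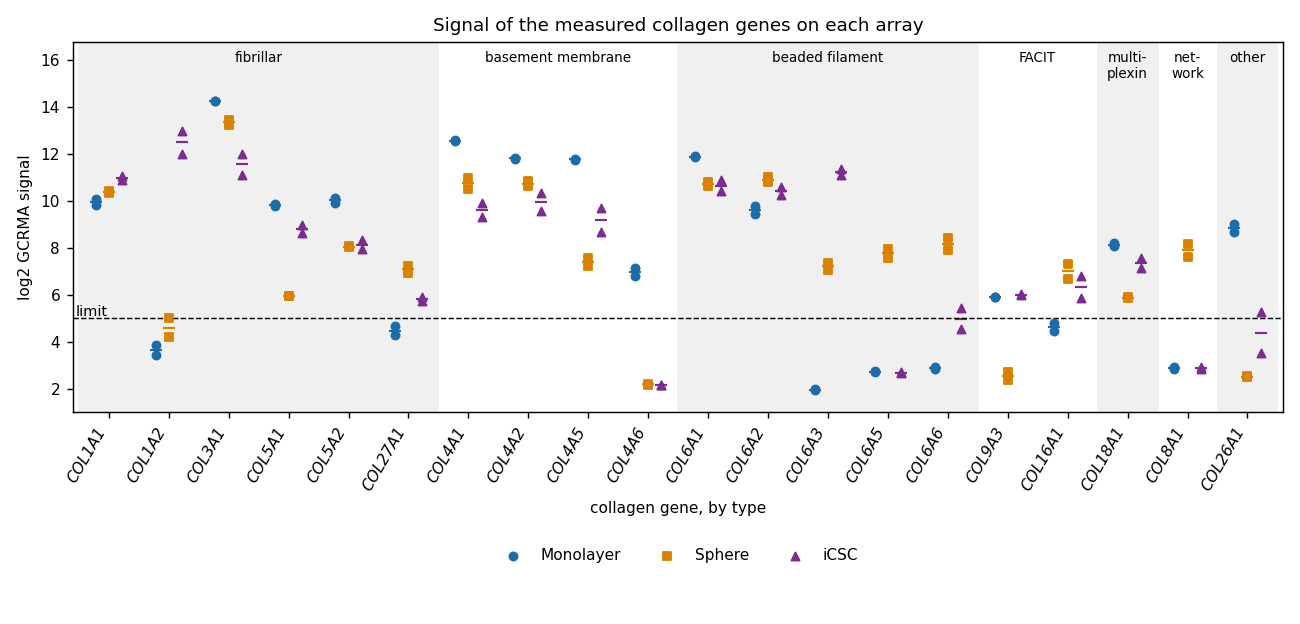
Log2 GCRMA signal (vertical axis) of the 20 tested collagen genes (horizontal axis, grouped by type) on each array. Points are arrays, coloured and shaped by culture, short bars are the means of the 2 arrays and the dashed line is the limit of log2 5. COL1A2 stands above the limit in iCSC alone, COL4A6 in Monolayer alone, and COL6A5 and COL8A1 in Sphere alone.

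The arrays were close in overall level, with medians of 2.78 to 2.83 over all probe sets. RNA integrity was read from the ACTB control as its 3' minus 5' signal, which lay at 1.47 and 1.40 for iCSC and at 1.16 to 1.25 for the other 4 arrays. The same signal of the GAPDH control lay at 0.169 and 0.204 for iCSC and at 0.122 to 0.165 for the other 4. The part of these differences in the collagen results was not tested. Of the 7 neuroblastoma markers chosen, 6 had a named probe set. Both arrays were above the limit for 2 of the 6 in Monolayer and for 5 in Sphere and iCSC, and DBH was under it on every array. Their summed signal, after undoing the log, was 843.6 to 991.8 in Monolayer, 6289 to 8105 in Sphere and 651.7 to 809.9 in iCSC. Epithelial markers (7 of 7), endothelial markers (7 of 8) and Schwann cell markers (4 of 5) lay under the limit on every array, as did 6 of 7 leukocyte markers. The exceptions moved with the cultures. PTPRC (CD45) was above the limit in Monolayer (11.74) and Sphere (12.47) and under it in iCSC (2.86). The endothelial PECAM1 was above it in Sphere alone, at 5.59. ERBB3, a receptor of the Schwann cell lineage, was at 5.18 in Monolayer. In iCSC it was at 7.41, at least 5.31-fold above Sphere (limma, adjusted p = 0.000583). Of 10 fibroblast markers, 4 (FAP, DPT, MFAP5 and TCF21) were under the limit everywhere. The summed signal of the 10 was 1613 to 1985 in Monolayer, 12250 to 13600 in Sphere and 2909 to 3214 in iCSC. Such sums are carried by the probe sets with the strongest signal and do not describe each marker. In Sphere these were LUM (mean log2 13.18) and, for the neuroblastoma markers, GATA3 (12.31). Of the 6 tested fibroblast markers, 5 were higher in Sphere than in Monolayer (30.0% of all tested genes) and 1, PDGFRA, was lower (29.1%). DCN and THY1 were under the limit in Monolayer and were tested only through the other cultures. This count therefore leans toward higher markers. The part of these markers in the collagen results was not tested. In such bulk RNA, fewer cells of a type and less RNA per cell cannot be told apart.

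Nearly all tested collagens differed between Sphere and Monolayer. Of the 20, 19 were called at an adjusted p under 0.05, against 59.0% of all 10459 genes. Of these, 8 were higher in Sphere, against 30.0% of all genes, and 11 were lower, against 29.1%. From Sphere to iCSC 15 were called (38.5% of all genes), 8 higher (19.3%) and 7 lower (19.2%). Between iCSC and Monolayer 17 were called (55.6% of all genes), 7 higher in iCSC (29.0%) and 10 lower (26.6%). A collagen that was tested only because 1 culture raised it above the limit had to differ, so these counts lean toward calls. Among the 10 collagens with a mean of at least log2 7 over the 6 arrays, all 10 were called in Sphere against Monolayer, 8 lower (30.1% of such genes) and 2 higher (27.9%), against 58.0% of them in either direction. Their median change was -1.50, beside -0.01 over all 8082 such genes. In iCSC against Monolayer all 10 were again called (55.2%), 8 lower (27.3%) and 2 higher (27.8%), with a median of -1.57 beside 0.00. In iCSC against Sphere 7 of the 10 were called (36.6%), 4 higher (18.9%) and 3 lower (17.7%). With no filter at all, 18, 13 and 18 of the 43 collagens were called in the same order of comparisons, against 29.8%, 18.3% and 27.4% of 19775 genes. The 3 comparisons share their arrays in pairs, so their values stand side by side and are not independent.

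The chains of type I collagen, the main fibril collagen of skin and bone, were both highest in iCSC and differed in detection and in the size of the change. COL1A1, which encodes the alpha 1 chain, read 9.83 and 10.09 on the Monolayer arrays, 10.34 and 10.44 in Sphere and 11.06 and 10.89 in iCSC. COL1A2, which encodes the alpha 2 chain of the same molecule, read 3.44 and 3.84 in Monolayer, 4.99 and 4.22 in Sphere and 13.01 and 12.02 in iCSC. COL1A1 was thus above the limit everywhere with its cultures in separate ranges, whereas COL1A2 was under the limit on all 4 arrays without 5AdC and far above it on both iCSC arrays.

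Both comparisons with iCSC put COL1A2 at least 183-fold above the other culture (limma, adjusted p = 2.43e-05 against Sphere and 9.40e-06 against Monolayer), calls that held under all 18 alternatives. All 3 of its measured probe sets were higher in iCSC, by fitted differences of 7.91, 8.53 and 4.85 between iCSC and Sphere. COL1A1 changed by 0.42 ± 0.12 (log2, SE) from Monolayer to Sphere (adjusted p = 0.0243), by 0.59 ± 0.12 from Sphere to iCSC (0.0111) and by 1.01 ± 0.12 from Monolayer to iCSC (0.000728). The first COL1A1 call held under 12 of 17 alternatives (0.0149 to 0.150) and was lost without Monolayer replicate 1 (0.150), Sphere replicate 1 (0.0686) or Sphere replicate 2 (0.116). The next held under 14 of 17 (0.00830 to 0.0831) and was lost without Sphere replicate 1 (0.0728). Among the 4 measured COL1A1 probe sets, 1 with the suffix x_at, which marks possible cross-hybridization, changed otherwise, by -0.07 and -0.14.

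COL3A1, the fibril collagen of elastic tissues such as vessel walls, had its highest values in Monolayer. It read 14.27 and 14.25 in Monolayer, 13.47 and 13.24 in Sphere and 11.12 and 12.01 in iCSC, 3 ranges that did not overlap. Its change was -2.69 ± 0.27 from Monolayer to iCSC (limma, adjusted p = 0.000303) and -1.79 ± 0.27 from Sphere to iCSC (0.00279). The smaller step from Monolayer to Sphere, -0.90 ± 0.27 (0.0250), held under 12 of 18 alternatives (0.000665 to 0.150). Leaving out any 1 of the 4 arrays compared ended it, with adjusted p = 0.118 and 0.111 without Monolayer replicates 1 and 2, and 0.0771 and 0.135 without Sphere replicates 1 and 2. COL3A1 and COL5A2 are neighbours on chromosome 2.

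COL5A1 and COL5A2 encode the chains of type V collagen, a minor fibril collagen that sets where fibrils start and how wide they grow. COL5A1 read 9.85 and 9.78 in Monolayer, 5.96 and 5.93 in Sphere and 8.66 and 9.00 in iCSC. It was lowest in Sphere, with little spread between arrays, and iCSC lay between the other cultures. Its change was -3.87 ± 0.16 from Monolayer to Sphere (limma, adjusted p = 4.46e-06), 2.88 ± 0.16 from Sphere to iCSC (3.52e-05) and -0.99 ± 0.16 from Monolayer to iCSC (0.00225). COL5A2 read 10.12 and 9.94 in Monolayer, 8.08 and 8.03 in Sphere and 8.33 and 7.97 in iCSC. It was lower in both spheroid cultures, by a change of -1.98 ± 0.16 in Sphere (limma, adjusted p = 9.76e-05) and -1.88 ± 0.16 in iCSC (0.000154), and the step between them, 0.09 ± 0.16, did not pass (0.698). COL5A3, the remaining chain of the type, was under the limit on all 6 arrays.

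The promoter of COL5A1 is shown because, of the tested fibrillar chains, it lay furthest below Monolayer in Sphere. In iCSC it lay closer to Monolayer (changes of -3.87 and -0.99 against Monolayer). The part of 5AdC in this was not tested. Sequences come from RefSeq on GRCh38.p14, run from 250 bases before to 50 bases after a gene start, and carry each CpG, the dinucleotide that DNA methyltransferases act on, in capitals. This window lies on the plus strand at chr9:134641553-134641852.
COL5A1: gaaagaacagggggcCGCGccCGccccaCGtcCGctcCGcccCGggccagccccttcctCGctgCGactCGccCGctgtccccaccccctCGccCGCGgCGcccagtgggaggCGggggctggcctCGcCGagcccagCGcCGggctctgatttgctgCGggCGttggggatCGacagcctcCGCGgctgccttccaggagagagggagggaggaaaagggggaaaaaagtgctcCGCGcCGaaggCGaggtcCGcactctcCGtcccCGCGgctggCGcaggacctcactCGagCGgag
It held 36 CpGs, and 12.7% of the 35116 RefSeq windows held at least as many. The arrays did not measure methylation, and CpG number describes the window only.

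COL27A1, a fibrillar collagen of cartilage and developing tissue, was higher in Sphere. It read 4.29 and 4.67 in Monolayer, 6.94 and 7.23 in Sphere and 5.90 and 5.74 in iCSC, so that only the Monolayer arrays were under the limit. Sphere was at least 4.24-fold and iCSC at least 1.76-fold above Monolayer (limma, adjusted p = 9.14e-05 and 0.00203), and iCSC was 1.27 ± 0.21 below Sphere on the log2 scale (change -1.27, 0.00427). The other measured probe set of COL27A1 was likewise higher in Sphere than in both other cultures. It was under the limit on every Monolayer and iCSC array, so it did not measure the difference between these cultures. In the fibrillar group as a whole, 2 of 6 tested chains were higher and 3 lower in Sphere than in Monolayer (30.0% and 29.1% of all genes), 3 higher and 2 lower in iCSC than in Sphere (19.3% and 19.2%), and 3 higher and 3 lower in iCSC than in Monolayer (29.0% and 26.6%). The other fibrillar chains, COL11A1, COL11A2 and COL24A1, were under the limit throughout.

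Basement membrane collagens were lower in both spheroid cultures. All 4 tested type IV chains were lower in Sphere (29.1% of all genes) and in iCSC (26.6%) than in Monolayer. COL4A6 passed the filter through its Monolayer arrays alone, so it had to differ. COL4A1 and COL4A2, which together build the common type IV molecule of nearly all basement membranes, moved in the same direction in every comparison. COL4A1 read 12.59 and 12.57 in Monolayer, 10.51 and 10.99 in Sphere and 9.91 and 9.31 in iCSC. COL4A2 read 11.81 and 11.84 in Monolayer, 10.64 and 10.85 in Sphere and 10.33 and 9.56 in iCSC. For both genes Monolayer was highest and iCSC lowest, and no culture overlapped another.

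COL4A1 changed by -1.83 ± 0.23 from Monolayer to Sphere (limma, adjusted p = 0.000676), by -1.14 ± 0.23 from Sphere to iCSC (0.00916) and by -2.97 ± 0.23 from Monolayer to iCSC (9.78e-05). For COL4A2 the changes were -1.08 ± 0.24 (0.00771), -0.80 ± 0.24 (0.0373) and -1.88 ± 0.24 (0.000819). The steps from Sphere to iCSC were the less stable. That of COL4A2 held under 10 of 18 alternatives (0.00152 to 0.185) and was lost without Monolayer replicate 1 (0.0874) or 2 (0.0874) and without Sphere replicate 1 (0.106) or 2 (0.181). That of COL4A1 held under 16 of 18 (0.00231 to 0.101) and was lost without Sphere replicate 2 (0.0623). The step of COL4A2 from Monolayer to Sphere held under 14 of 18 (0.000338 to 0.0826) and was lost without Monolayer replicate 1 (0.0523) or 2 (0.0562) or Sphere replicate 1 (0.0623). Both measured probe sets of each gene had the lower mean in the same culture in every comparison.

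COL4A1 and COL4A2 lie head to head on chromosome 13, with RefSeq starts 127 bases apart, so their promoter windows share 226 bases on opposite strands. The COL4A1 window, on the minus strand at chr13:110307108-110307407, is shown because the genes that moved together face each other across it.
COL4A1: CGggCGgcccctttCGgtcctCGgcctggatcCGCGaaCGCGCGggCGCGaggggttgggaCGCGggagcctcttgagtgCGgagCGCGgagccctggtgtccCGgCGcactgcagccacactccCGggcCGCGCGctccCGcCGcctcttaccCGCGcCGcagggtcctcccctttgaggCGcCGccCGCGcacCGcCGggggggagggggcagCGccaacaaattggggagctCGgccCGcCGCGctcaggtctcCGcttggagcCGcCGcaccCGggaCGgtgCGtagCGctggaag
It held 45 CpGs, as many as the COL4A2 window, and 3.48% of all windows held at least as many. Each window held 1 CCAAT on either strand, a sequence found in 34.6% of all windows, and neither held TATAAA, found in 11.5%.

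COL4A5 and COL4A6, chains of a type IV molecule of selected basement membranes such as those of smooth muscle and kidney, also lie head to head, on chromosome X. COL4A5 read 11.77 and 11.78 in Monolayer, 7.58 and 7.21 in Sphere and 9.72 and 8.68 in iCSC. COL4A6 read 7.13 and 6.80 in Monolayer, 2.17 and 2.19 in Sphere and 2.16 and 2.16 in iCSC. Both were highest in Monolayer, but COL4A5 stood above the limit on every array while COL4A6 was under it on all 4 spheroid arrays.

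COL4A5 changed by -4.38 ± 0.32 from Monolayer to Sphere (limma, adjusted p = 6.28e-05), by 1.81 ± 0.32 from Sphere to iCSC (0.00592) and by -2.57 ± 0.32 from Monolayer to iCSC (0.000829). The rise from Sphere to iCSC held under 15 of 17 alternatives (0.000542 to 0.0860) and was lost without Sphere replicate 2 (0.0518). COL4A6 was at least 3.90-fold lower in Sphere and in iCSC than in Monolayer (3.79e-06 and 5.25e-06), and whether it changed between Sphere and iCSC could not be measured under the limit. Of the 3 COL4A6 probe sets, 1 passed the filter. COL4A3 and COL4A4, the chains of the mature glomerular and lung basement membrane and a further head-to-head pair, were both under the limit on all 6 arrays, between 2.68 and 2.84.

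The windows of COL4A5, on the plus strand at chrX:108439588-108439887, and of COL4A6 at the nearer of its 2 listed starts, on the minus strand at chrX:108439409-108439708, are shown because this pair faces each other like COL4A1 and COL4A2, both fell from Monolayer, and COL4A5 alone could be followed into iCSC.
COL4A5: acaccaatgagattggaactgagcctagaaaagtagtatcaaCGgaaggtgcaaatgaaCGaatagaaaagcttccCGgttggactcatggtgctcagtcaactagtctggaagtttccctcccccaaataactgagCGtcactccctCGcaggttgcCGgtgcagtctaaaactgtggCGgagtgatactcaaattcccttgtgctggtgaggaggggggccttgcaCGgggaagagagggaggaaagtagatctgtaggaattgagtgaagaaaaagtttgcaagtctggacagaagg
COL4A6: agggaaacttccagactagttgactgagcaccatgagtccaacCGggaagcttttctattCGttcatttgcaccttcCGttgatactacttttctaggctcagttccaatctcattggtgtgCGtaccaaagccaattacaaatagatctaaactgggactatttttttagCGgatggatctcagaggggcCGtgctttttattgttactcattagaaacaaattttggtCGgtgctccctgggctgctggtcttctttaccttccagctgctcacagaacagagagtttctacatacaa
Their starts lie 380 bases apart and the windows share 121 bases. They held 8 and 7 CpGs, numbers reached by 60.7% and 63.2% of all windows, and carried 2 and 3 CCAAT.

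Type VI collagen forms beaded filaments that anchor cells to the interstitial matrix, and the chain mRNAs above the limit differed between cultures. Its classic molecule joins an alpha 1 and an alpha 2 chain, encoded by the neighbours COL6A1 and COL6A2 on chromosome 21, with a long chain usually encoded by COL6A3. COL6A5 and COL6A6, neighbours on chromosome 3, encode alternative long chains. In Sphere against Monolayer 4 of the 5 were higher (30.0% of all genes) and 1 lower (29.1%). COL6A3, COL6A5 and COL6A6 were under the limit in Monolayer and passed the filter only through other cultures, so this count leans toward calls. With the other probe set of COL6A2, which changed by -0.31 and did not pass (adjusted p = 0.247, range 0.000422 to 0.247), 3 were higher.

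COL6A3 read 1.92 and 1.97 in Monolayer, 7.06 and 7.38 in Sphere and 11.13 and 11.36 in iCSC. It stood under the limit in Monolayer, and the 3 cultures formed steps far apart compared with the spread of their arrays. Against Monolayer, COL6A3 was higher by at least 4.66-fold in Sphere and by at least 75.7-fold in iCSC (limma, adjusted p = 2.41e-06 and 7.41e-07). From Sphere to iCSC, with all arrays above the limit, it rose by 4.02 ± 0.18 (1.67e-05). The gene has 1 probe set, and each of its 3 calls held under all 18 alternatives.

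COL6A5 and COL6A6 followed another course. COL6A5 read 2.72 and 2.74 in Monolayer, 7.59 and 7.95 in Sphere and 2.66 and 2.69 in iCSC, so it was measured in Sphere alone. COL6A6 read 2.84 and 2.94 in Monolayer, 8.44 and 7.91 in Sphere and 4.53 and 5.44 in iCSC, where 1 of the 2 arrays was under the limit. Sphere stood at least 6.82-fold above both other cultures for COL6A5 (limma, adjusted p = 3.41e-06 against Monolayer and 7.25e-06 against iCSC). For COL6A6 Sphere was at least 9.02-fold above Monolayer (3.05e-05), and the change from Sphere to iCSC was -3.19 ± 0.33 (0.000617). With values under the limit set to 5 that change was -2.95. The fitted COL6A6 difference between iCSC and Monolayer, 2.10 ± 0.33 (0.00226), lies mostly under the limit: with values under 5 set to 5 it was 0.22 and did not pass (0.462, range 0.00103 to 0.462 over 18 alternatives). Both COL6A5 probe sets gave the same course.

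The windows of COL6A3, on the minus strand at chr2:237414115-237414414, and COL6A6, on the plus strand at chr3:130516927-130517226, are shown because these long chains of one collagen type moved in opposite directions from Sphere to iCSC.
COL6A3: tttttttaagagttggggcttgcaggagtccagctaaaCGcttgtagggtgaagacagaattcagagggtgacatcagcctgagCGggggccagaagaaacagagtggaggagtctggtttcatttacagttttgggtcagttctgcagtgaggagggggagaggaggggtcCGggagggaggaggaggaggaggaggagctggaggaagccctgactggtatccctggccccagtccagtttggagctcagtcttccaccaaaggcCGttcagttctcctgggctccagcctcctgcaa
COL6A6: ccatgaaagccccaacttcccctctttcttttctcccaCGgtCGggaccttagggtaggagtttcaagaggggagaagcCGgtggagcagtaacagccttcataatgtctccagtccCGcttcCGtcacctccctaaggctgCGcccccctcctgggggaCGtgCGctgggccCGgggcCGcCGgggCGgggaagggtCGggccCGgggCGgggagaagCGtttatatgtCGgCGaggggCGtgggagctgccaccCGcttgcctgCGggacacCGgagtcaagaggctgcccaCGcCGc
The COL6A3 window held 4 CpGs, a number reached by 75.5% of all windows, and the COL6A6 window 24, reached by 33.9%. The COL6A6 window held 1 TATAAA and the COL6A3 window none.

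The short chains of type VI moved less. COL6A1 read 11.93 and 11.87 in Monolayer, 10.66 and 10.80 in Sphere and 10.41 and 10.89 in iCSC. Its change from Monolayer was -1.17 ± 0.16 in Sphere and -1.25 ± 0.16 in iCSC (limma, adjusted p = 0.000970 and 0.000867), and the arrays of Sphere and iCSC overlapped. COL6A2 read 9.81 and 9.47 in Monolayer, 10.82 and 11.01 in Sphere and 10.24 and 10.60 in iCSC. It was 1.27 ± 0.17 higher in Sphere (0.000937) and 0.78 ± 0.17 higher in iCSC (0.00849) than in Monolayer. The direction of COL6A2 rests on its probe set: the other measured one changed by -0.31 and -0.33 in these comparisons, and with x_at and s_at probe sets left out neither passed (0.247 and 0.223, ranges 0.000422 to 0.247 and 0.00630 to 0.294). The iCSC call was also lost without Monolayer replicate 2 (0.0655). From Sphere to iCSC the change of -0.49 ± 0.17 did not pass (0.0632, range 0.0284 to 0.950), though it did without iCSC replicate 2 (0.0342).

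**Figure D2:**
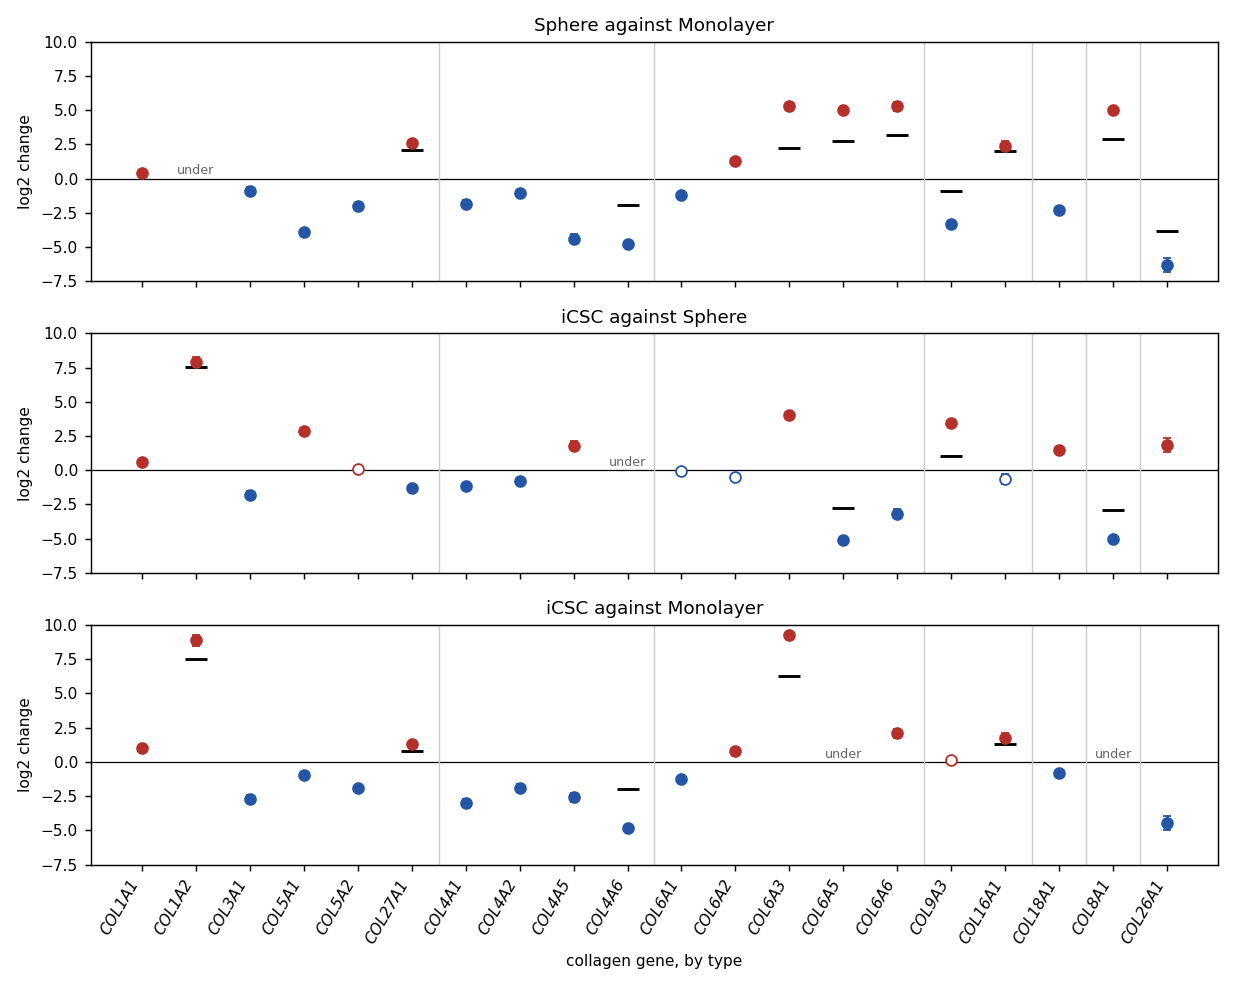
Log2 change (vertical axis) of the 20 tested collagens in each comparison, with the standard error of limma's fit as bars. Filled points were called and open points were not, red is higher and blue lower in the first culture, and short black lines are the smallest change that the limit of log2 5 allows where both arrays of 1 culture, and none of the other, lay under it. COL6A6 and COL26A1 had 1 iCSC array under it and are drawn as fitted. "Under" marks genes under the limit on all 4 arrays compared. The type IV chains lie below 0 in the upper and lower panels, and COL1A2 and COL6A3 lie above 0 in both panels with iCSC.

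Among the other types, COL18A1, a basement membrane multiplexin whose end fragment is the angiogenesis inhibitor endostatin, was lowest in Sphere. It read 8.19 and 8.09 in Monolayer, 5.92 and 5.85 in Sphere and 7.58 and 7.13 in iCSC. Its change was -2.26 ± 0.19 from Monolayer to Sphere (limma, adjusted p = 0.000125) and 1.48 ± 0.19 from Sphere to iCSC (0.00163), and its 2 probe sets behaved alike. The change of -0.79 ± 0.19 from Monolayer to iCSC (0.0136) held under 14 of 17 alternatives (0.00323 to 0.0860) and was lost without Monolayer replicate 1 (0.0860) or 2 (0.0605).

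COL9A3, a chain of the fibril-associated type IX collagen of cartilage, read 5.90 and 5.90 in Monolayer, 2.72 and 2.39 in Sphere and 5.99 and 6.03 in iCSC. It was close to the limit where present, and Sphere alone was under it. Sphere was at least 1.87-fold below Monolayer and at least 2.01-fold below iCSC (limma, adjusted p = 1.66e-05 and 3.24e-05), while iCSC and Monolayer differed by 0.11 ± 0.19, which did not pass (0.660). COL9A1 and COL9A2, its partner chains, were under the limit on every array. COL26A1, a secreted collagen of the EMI domain family, read 9.01 and 8.67 in Monolayer, 2.54 and 2.48 in Sphere and 5.25 and 3.50 in iCSC. The Monolayer level exceeded that of Sphere at least 14.3-fold (0.000106), and iCSC, with 1 array under the limit, changed by a fitted -4.46 ± 0.52 from Monolayer (0.000612), or by -3.71 with values under the limit set to 5. The fitted COL26A1 difference of 1.87 ± 0.52 between iCSC and Sphere (0.0309) also lies mostly under the limit, and held under 10 of 18 alternatives (0.000653 to 0.612). With values under 5 set to 5 it was 0.13 and did not pass (0.612). It was also lost without Monolayer replicate 1 (0.0698) or 2 (0.0699) and without Sphere replicate 1 (0.127) or 2 (0.134).

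COL8A1, a short-chain network collagen made by endothelial and smooth muscle cells, read 2.83 and 2.90 in Monolayer, 7.62 and 8.17 in Sphere and 2.90 and 2.84 in iCSC. It was measured in Sphere alone, at least 7.46-fold above both other cultures (limma, adjusted p = 6.52e-06 against Monolayer and 1.54e-05 against iCSC), in 1 of its 3 probe sets. PECAM1, an endothelial marker, was above the limit in Sphere alone, at 5.59 ± 0.20 (SD, n = 2) against 2.98 in Monolayer and 3.74 in iCSC. That is at least 1.50-fold above each (limma, adjusted p = 4.27e-05 and 0.000427). Both calls held under 16 of 17 alternatives (ranges 3.34e-05 to 0.992 and 0.000255 to 0.988). The upper values are those of the alternative that lost each call, so the PECAM1 difference depends on the processing chosen. ACTA2 (smooth muscle actin), here 1 of the fibroblast markers, was 1.68 ± 0.38 (log2, SE) higher in Sphere than in Monolayer (0.00868, range 0.00402 to 0.0872, held under 16 of 18 alternatives). The other 7 of 8 endothelial markers, among them CDH5, VWF and KDR, were under the limit on every array, and the part of these cell types in the COL8A1 result was not tested. COL16A1, a fibril-associated chain, read 4.44 and 4.79 in Monolayer, 7.33 and 6.66 in Sphere and 5.86 and 6.80 in iCSC. Against Monolayer it was higher by at least 3.99-fold in Sphere (limma, adjusted p = 0.00181) and by at least 2.52-fold in iCSC (0.00816). The latter held under 15 of 17 alternatives (0.00458 to 0.0812) and was lost without Monolayer replicate 1 (0.0662). The arrays of Sphere and iCSC overlapped for COL16A1, and the step of -0.66 ± 0.37 between them did not pass (0.207).

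Several probe sets were measured for 12 of the 20 tested collagens. For COL3A1, COL4A1, COL4A2, COL5A1, COL5A2, COL18A1, COL6A5 and COL27A1 they kept one direction in Sphere against Monolayer and in iCSC against Sphere. The COL6A1 probe sets agreed in Sphere against Monolayer and differed by -0.07 and 0.03 in iCSC against Sphere. COL1A1 and COL6A2 held the disagreements described above, and of the COL1A2 probe sets 1 differed by -0.03 between Sphere and Monolayer, where all 3 were under the limit.

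**Figure D3:**
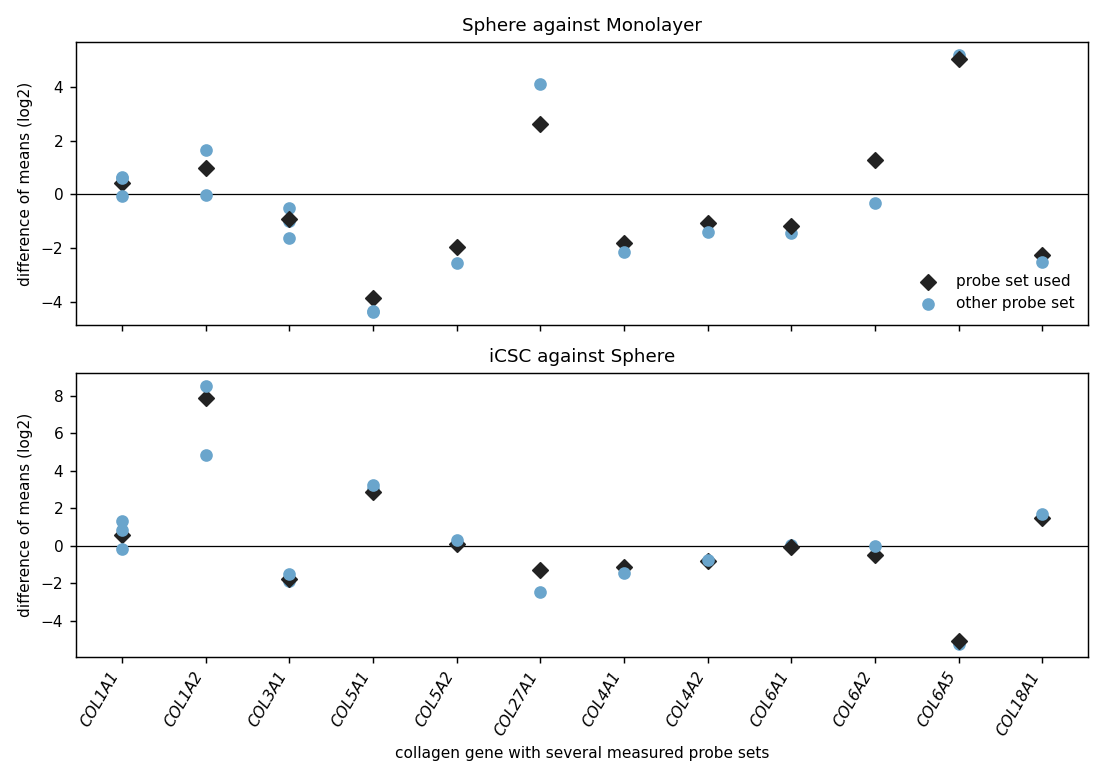
Difference between culture means (log2, vertical axis) for every measured probe set of the 12 collagens with several, in Sphere against Monolayer (upper panel) and iCSC against Sphere (lower panel). Black diamonds are the probe sets used and blue circles the others. The points of a gene lie on one side of 0 for most genes, with COL1A1, COL6A2 and, by a difference of -0.03 in 1 probe set, COL1A2 on both sides in the upper panel. In the lower panel COL1A1 and, by differences of -0.07 and 0.03, COL6A1 lie on both sides.

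Of 20 genes listed for the folding and modification of collagen chains, 15 were tested. From Monolayer to Sphere 10 fell (29.1% of all genes), 1 rose (30.0%) and 4 were not called, with a median change of -0.77 beside 0.01 over all tested genes. SERPINH1, the collagen-specific chaperone HSP47, changed by -2.34 ± 0.24 (limma, adjusted p = 0.000298), and CRTAP, a subunit of the prolyl 3-hydroxylase complex, by -1.27 ± 0.12 (0.000193). P4HA1, a catalytic subunit of prolyl 4-hydroxylase, changed by -1.13 ± 0.12 (0.000320), and the single gene that rose was the chaperone FKBP7 (1.43 ± 0.19, 0.000940). From Sphere to iCSC 6 rose (19.3% of all genes) and 1 fell (19.2%), with a median of 0.34 beside 0.01. P4HA1 rose by 0.67 ± 0.12 (0.00599), whereas P4HA2, another prolyl 4-hydroxylase subunit, changed by -1.36 ± 0.21 (0.00351). In iCSC against Monolayer 8 were lower (26.6%) and 1 higher (29.0%). Of 10 tested genes of procollagen export, the vesicle coat and its adaptors, 3 rose and 3 fell in Sphere, as in the shares of all genes (30.0% and 29.1%). The coat gene SEC24D rose by 1.50 ± 0.25 from Sphere to iCSC (limma, adjusted p = 0.00420).

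Of 7 tested genes that trim and crosslink secreted collagen, 1 rose (30.0% of all genes) and 4 fell (29.1%) in Sphere against Monolayer. ADAMTS3, a protease that removes the amino-terminal propeptide, averaged 4.60 ± 0.39 (SD, n = 2) in Monolayer, 11.64 ± 0.04 in Sphere and 8.77 ± 0.32 in iCSC. The step to Sphere was a rise of at least 100.1-fold (limma, adjusted p = 1.94e-06). BMP1, the protease that removes the carboxy-terminal propeptide of fibrillar collagens, averaged 8.20 ± 0.12 in Monolayer, 4.71 ± 0.33 in Sphere and 6.68 ± 0.04 in iCSC, and its fall to Sphere was at least 9.19-fold (2.29e-05). TLL2, a relative of BMP1, was under the limit in Monolayer and Sphere and reached 11.24 ± 0.33 in iCSC, at least 75.6-fold higher than in either (2.53e-06 against Sphere). LOXL1, a lysyl oxidase that crosslinks matrix, changed by -1.23 ± 0.11 in Sphere against Monolayer (0.000125) and by 1.07 ± 0.11 from Sphere to iCSC (0.000476). LOX itself was under the limit on every array.

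Of the collagen-degrading proteases and their inhibitors, 8 of 11 tested rose (30.0% of all genes) and 2 fell (29.1%) in Sphere against Monolayer. Their median fitted change was 1.41, or 0.95 with values under the limit set to 5, beside 0.01 and 0.00 over all tested genes. CTSK, a lysosomal collagenase, rose at least 39.9-fold and MMP9, a gelatinase, at least 72.6-fold (limma, adjusted p = 8.38e-07 and 4.06e-06), and TIMP3, an inhibitor of such proteases bound to matrix, rose by 4.25 ± 0.42 (0.000254). TIMP1, a soluble inhibitor, changed by -2.12 ± 0.12 (2.12e-05). From Sphere to iCSC 6 fell (19.2% of all genes) and 1 rose (19.3%), with a median of -0.89 beside 0.01. MMP1, the interstitial collagenase, was at least 53.8-fold lower in iCSC than in Sphere (8.81e-05) and at least 51.5-fold lower than in Monolayer (5.93e-05), and MMP9 was at least 72.6-fold lower in iCSC than in Sphere (1.04e-05). Among the 5 tested collagen receptors, the integrin subunit ITGA1, which favours basement membrane collagen, rose by 5.18 ± 0.53 in Sphere (0.000277) and changed by a fitted -5.36 ± 0.53 from Sphere to iCSC (0.000476), where 1 iCSC array was under the limit, or by -5.12 with that array set to 5. ITGA2, which favours fibrillar collagen, changed by -2.38 ± 0.30 in Sphere (0.000672). DDR2, a receptor tyrosine kinase activated by fibrillar collagen, was 0.60 ± 0.09 higher in iCSC than in Monolayer (0.00164).

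Of 10 tested basement membrane partners 5 fell (29.1% of all genes) and 3 rose (30.0%) in Sphere against Monolayer. The laminin chains LAMA5, LAMB1 and LAMC1, which with type IV collagen make up the basement membrane, changed by -1.88 ± 0.17, -1.61 ± 0.15 and -1.51 ± 0.08 (limma, largest adjusted p = 0.000206). The laminin chain LAMA4 went the other way, at least 1.50-fold higher in Sphere (1.61e-05). NID1 and NID2, the nidogens that link laminin to type IV collagen, rose by 1.43 ± 0.17 (0.000532) and at least 4.93-fold (3.13e-05). LAMA5 rose by 1.72 ± 0.17 from Sphere to iCSC (0.000491), the step in which COL4A1 and COL4A2 fell and COL4A5 rose. Of 11 tested fibril-associated proteins 7 fell (29.1% of all genes) and 3 rose (30.0%) in Sphere. Those that rose were the leucine-rich proteoglycans DCN (at least 49.8-fold), LUM (5.65 ± 0.15) and FMOD (at least 2.98-fold), which bind collagen fibrils (largest adjusted p = 0.000361). DCN and LUM are also among the fibroblast markers. Of those that fell, the matricellular protein POSTN (periostin) had the largest change, at least 107.9-fold lower in Sphere than in Monolayer (6.05e-07). TGFBI, an adhesion protein that binds collagens, was at least 14.7-fold lower (7.54e-06), THBS1 (thrombospondin 1) changed by -3.51 ± 0.13 (2.72e-06) and FBN1, the microfibril protein fibrillin 1, by -1.69 ± 0.32 (0.00435). Among all these lists a gene that passed the limit in 1 culture alone had to differ, as for the collagens.

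**Figure D4:**
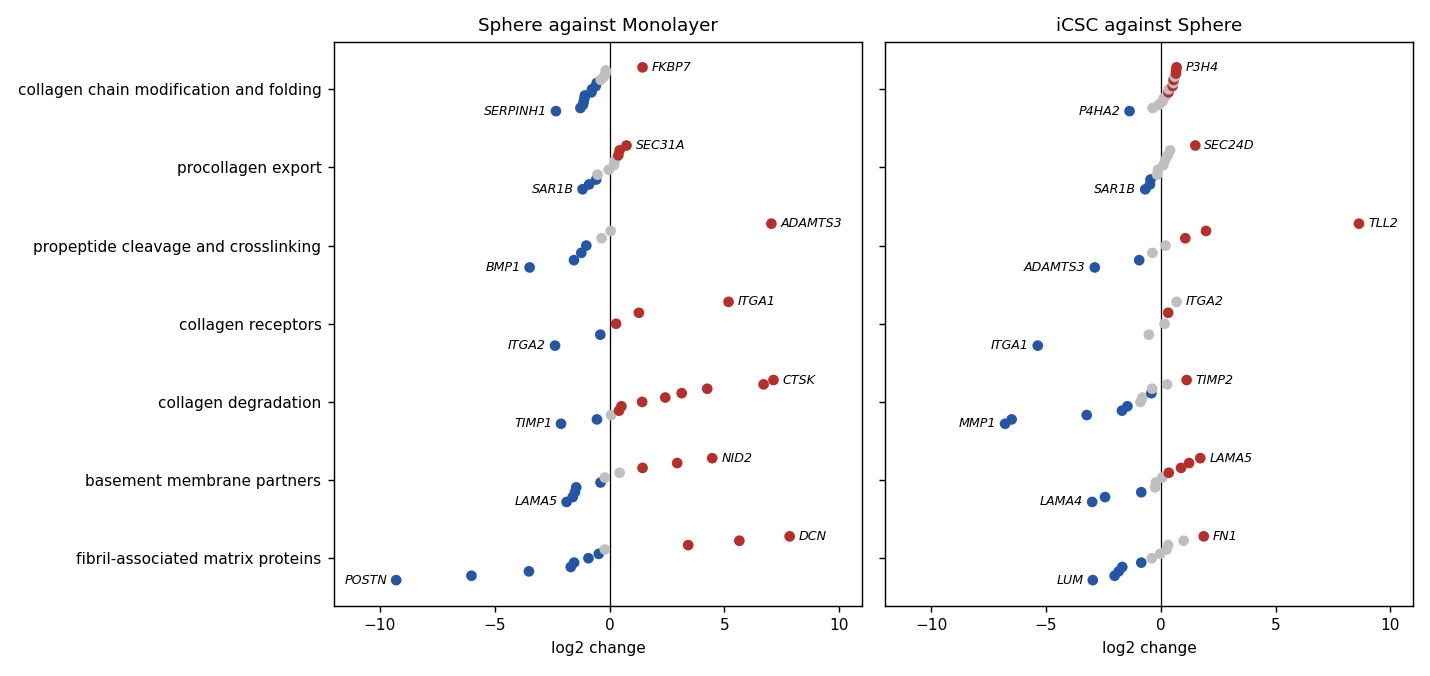
Log2 change (horizontal axis) of the tested genes of each collagen pathway list (vertical axis) in Sphere against Monolayer (left) and iCSC against Sphere (right). Each point is a gene, red where called higher, blue where called lower and grey where not called, with the lowest and highest gene of each list named. Changes that start or end under log2 5 are drawn as fitted and overstate the measured change.

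RefSeq windows were at hand for 12 of the 20 tested collagens (15 windows) and for 19 of the 23 others (28 windows). The tested collagens COL1A1, COL1A2, COL3A1, COL5A2, COL6A1, COL6A5, COL8A1 and COL9A3 were not among them. The median number of CpGs was 24 in the windows of tested collagens, 16.5 in those of the others and 14 over all windows. Of the 8 genes higher in iCSC than in Sphere, 5 had a window: COL5A1 held 36 CpGs in the window shown, COL26A1 29, COL4A5 8 and COL6A3 4, and COL18A1 held 46 and 10 at its 2 listed starts. Of the 7 lower in iCSC than in Sphere, 4 had a window: COL4A1 and COL4A2 held 45 each, COL6A6 24 and COL27A1 16.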

How the data were processed

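The authors deposited 1 table of log2 signals for all 54675 probe sets of the 6 arrays, made with GCRMA and handled in Partek, per the submitters' processing notes. The sources used here give no version. GCRMA corrects background from probe sequence and shares a distribution across arrays, so low values crowd near the background and shifts of all genes together are removed.

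Probe sets were named from GEO's platform annotation, updated to RefSeq symbols. The 41091 with a single symbol were kept, 1801 with several were left out, and 1 probe set per gene, that with the highest mean, was used. Genes at log2 5 or more on at least 2 arrays were fitted over all 3 cultures together in limma 3.58.1 (R 4.3.3, lmFit and eBayes with a mean-variance trend, 3 residual degrees of freedom). The 3 contrasts were each adjusted by the Benjamini-Hochberg method over 10459 genes, and called at an adjusted p under 0.05. With only 2 arrays per culture precision is limited. Errors are SE of the fit for changes and SD for means. Where both arrays of the lower culture and none of the higher were under log2 5, the fold is a lower bound, the higher mean against log2 5. Where a culture had 1 array under it, the fitted change is given beside the difference with values under log2 5 set to 5. Array values are given for all 20 tested collagens. Pathway genes, up to 4 per list, direction and comparison, were picked from called genes whose arrays did not overlap. Genes with larger changes were at times passed over, such as LOXL2 (-1.55 in Sphere against Monolayer) where LOXL1 was named. The script was tested on simulated data. Across the 18 alternatives, filters, floors, normalizations, probe set rules, variance models, a replicate block and left-out arrays were varied, and removal of chromosome medians was added after seeing the data, as was the split at a mean of log2 7. The members and all gene lists were chosen with earlier results of these data known.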

Additional observations from a re-analysis of the deposited data

How the results depend on the processing

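Over the 18 alternatives the called collagen results kept their direction except for COL6A2 when x_at and s_at probe sets were left out, where the change was -0.31 (Sphere against Monolayer) and -0.33 (iCSC against Monolayer). That setting left 15 tested collagens, of which 7 rather than 11 were lower in Sphere than in Monolayer and 4 rather than 8 were higher in iCSC than in Sphere. Without variance moderation, iCSC against Sphere had 9 calls rather than 15, with 5 higher and 4 lower. Leaving out 1 array at a time gave 16 to 20 calls in Sphere against Monolayer, 11 to 16 in iCSC against Sphere and 15 to 17 in iCSC against Monolayer.

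The replicate numbers do not pair the samples: deviations of same-numbered arrays correlated by 0.0186 (Monolayer and Sphere), -0.0530 (Monolayer and iCSC) and 0.173 (Sphere and iCSC) across genes, which are not independent replicates. With the replicate number as a block 19, 15 and 17 collagens were called in Sphere against Monolayer, iCSC against Sphere and iCSC against Monolayer, and no call was lost or gained. Signals under log2 5 give bounds only, and changes near that limit, such as those of COL9A3 and COL16A1, rest on signals close to background. Their fitted SE was 0.19 and 0.37, and the largest among the tested collagens was that of COL26A1 (0.52).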
